A study of Mus musculus with 18 samples.

Results

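The PYHIN gene cluster with Aim2, on mouse chromosome 1, was described here through 34 of the 53796 accessible regions of an ATAC-seq table. ATAC-seq uses a transposase that cuts and tags open chromatin, so more reads in a region mean a more accessible region. A region belonged to the cluster when its midpoint lay in the body of Aim2, Ifi213, Ifi209, Ifi207, Ifi204, Mndal, Ifi211, Ifi203 or Ifi205, or when that body was the nearest of any protein-coding gene within 50 kb. Aim2 had 14 regions, Ifi204 had 5, Ifi207 and Mndal had 4 each, Ifi213 and Ifi209 had 2 each, and Ifi211, Ifi203 and Ifi205 had 1 each. The regions ran from chr1:173391710 to 174032100 on GRCm38 (mm10), a stretch of 640.4 kb, and each spanned 501 bases. Of the 34, 20 lay inside a gene, 10 within 1 kb of a gene end and 4 between genes, and 9 held a RefSeq start site. A region is named by its gene and the distance of its midpoint from the nearest listed start site, positive in the direction of transcription. For Ifi204 the distance is from the end of the body with the higher coordinate, negative outside the body. Being nearest to a gene does not show which gene a region acts on.

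Typical PYHIN proteins pair a pyrin domain, which binds other pyrin domains, with a HIN domain that binds DNA, though not every member has both. The mouse family is an expanded block of neighbouring, related genes. Aim2 encodes a sensor of cytosolic DNA that recruits the adaptor ASC and caspase-1 into an inflammasome, the complex that matures IL-1β and IL-18 and cleaves gasdermin D. Many members are induced by interferon in macrophages, and interferon-stimulated genes are commonly controlled through the ISRE, a DNA element bound by interferon regulatory factors.

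Macrophages were grown from the bone marrow of C57BL/6 wildtype mice 6 to 12 weeks old with M-CSF at 20 ng/mL and replated on day 7, per the labels. They received a first treatment for 4 h and a second, in replaced medium, for 4 h, and each group had 2 libraries. The groups were CL (CpG, then LPS), PL (polyI:C, then LPS), CT (CpG, then TNF), PT (polyI:C, then TNF), MP (medium, then polyI:C), MC (medium, then CpG), ML (medium, then LPS), MT (medium, then TNF) and MM (medium throughout). CpG, unmethylated DNA sensed in endosomes, was used at 100 nM, LPS, the endotoxin of Gram-negative bacteria, at 1 ng/mL, polyI:C, a synthetic RNA duplex, at 1 µg/mL, and TNF, an inflammatory cytokine, at 10 ng/mL. All groups shared genotype, strain and culture.

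The DNA at the start sites is shown first, because a short element recurs in it. RefSeq (GRCm38.p6) promoter windows, 250 bases before to 50 after a start site, were matched by symbol for 8 of the 9 genes in 10 windows; Ifi204 had no entry. The lines give 40 bases around the element, 5′ to 3′ on the gene's strand. Capitals mark the ISRE core GAAANNGAAA, or in Ifi209 the shorter AAATNGAAA, a pattern written down after these letters were seen. The 2 patterns overlap in every window that holds both in these lines.
Ifi213 (chr1:173599321-173599360, minus strand): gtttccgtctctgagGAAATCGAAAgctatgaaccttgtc
Ifi209 (chr1:173630765-173630804, plus strand): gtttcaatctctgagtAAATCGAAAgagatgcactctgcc
Ifi207 (chr1:173741826-173741865, minus strand): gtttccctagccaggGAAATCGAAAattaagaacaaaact
Mndal (chr1:173880199-173880238, minus strand): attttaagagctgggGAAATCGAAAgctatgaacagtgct
Ifi211 (chr1:173913059-173913098, minus strand): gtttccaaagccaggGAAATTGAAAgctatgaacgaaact
Ifi203 (chr1:173942503-173942542, minus strand): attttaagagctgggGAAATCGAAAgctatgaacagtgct
Ifi205 (chr1:174031865-174031904, minus strand): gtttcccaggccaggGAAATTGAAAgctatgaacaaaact

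Each of these 7 stretches lay inside a measured region. Identity between pairs ran from 55% (Ifi209 with Ifi207 and with Ifi205) to 100% (Mndal with Ifi203). The Mndal and Ifi203 windows shared an unbroken run of 139 bases, so reads from that run could have been counted at either gene, and how such reads were handled is not given in the sources used here. Ifi211 and Ifi205 differed at 3 of 40 bases of the stretch, at 92.5% identity. With position 0 as the start site, the ISRE core ended at -64 in Ifi213, -32 in Ifi207, -27 in Mndal, -28 in Ifi211, -26 in Ifi203 and -125 in Ifi205. On either strand, GAAANNGAAA was found in 7 of the 10 windows of the cluster (6 of 8 genes) and in 3.44% of 32851 RefSeq windows. AAATNGAAA was found in 7 of the 10 windows (7 of 8 genes), against 1.87% of all windows. As that pattern was written down after these windows were seen, its count here is no test of enrichment. Windows of 1 gene overlap, and paralogous windows share sequence, so these are not independent.

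The Ifi205 and Aim2 windows are printed whole, because Ifi205 held the region with the widest response to a single stimulus at a start site and Aim2 held neither pattern. Capitals mark the 2 ISRE cores of Ifi205, the second on the opposite strand (positions 23 to 32).
Ifi205 (chr1:174031706-174032005, minus strand): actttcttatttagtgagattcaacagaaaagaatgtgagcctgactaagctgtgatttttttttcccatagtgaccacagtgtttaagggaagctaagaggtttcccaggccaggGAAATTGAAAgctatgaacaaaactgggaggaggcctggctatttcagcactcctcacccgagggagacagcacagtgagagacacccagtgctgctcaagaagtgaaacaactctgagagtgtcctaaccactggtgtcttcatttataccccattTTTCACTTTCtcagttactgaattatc
Aim2 (chr1:173420354-173420653, plus strand): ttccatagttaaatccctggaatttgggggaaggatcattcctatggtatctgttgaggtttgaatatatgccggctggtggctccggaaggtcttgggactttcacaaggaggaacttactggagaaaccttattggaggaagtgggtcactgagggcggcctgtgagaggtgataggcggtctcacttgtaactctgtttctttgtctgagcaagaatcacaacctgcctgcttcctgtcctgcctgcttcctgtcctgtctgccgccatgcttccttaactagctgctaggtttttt

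Other patterns were searched on both strands. The STAT pattern TTCNNNGAA was in 0 of the 10 windows and in 8.30% of all windows. The AP-1 pattern TGANTCA was in 5 of the 10 (Ifi209, Mndal and Ifi203) and in 7.81% of all. The kB motif was in 7 of the 10 (5 genes) and in 26.8% of all. The PU.1 core GAGGAAG was in the Aim2 window alone among the 10 and in 13.6% of all. A match is a run of letters, and the table holds no measurement of factor binding.

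The smallest library had 3141641 reads in regions (MM replicate 2) and the largest 5986835 (MT replicate 1), and a member region held 3 to 575 reads in a library. The 2 MP libraries differed by about as much as counting noise alone gives (chi-square per region 1.003, p = 0.291, over 53777 regions), while those of every other group differed by more. MP therefore entered as 1 sample, the mean of its libraries. Where both MP libraries are said to lie above others, they count as 1 observation. The PT libraries differed most, with a chi-square per region of 2.71. The labels do not say whether libraries came from separate mice or cultures, so a p-value covers only the variation among libraries, which may be technical. All 8 macrophage markers (Csf1r, Adgre1, Cd68, Mertk, Fcgr1, Lyz2, Itgam and Spi1) had a region within 1 kb of a gene end, with median log2 CPM of 3.34 to 5.39. Of the other markers, 1 of 5 T cell, 1 of 4 B cell, 1 of 5 neutrophil, 1 of 3 dendritic cell and 0 of 4 fibroblast genes had one. Their medians were 4.33 (Cd3d, T cell), 2.97 (Ebf1, B cell), 4.33 (S100a8, neutrophil) and 2.74 (Flt3, dendritic cell). Those of Cd3d and S100a8 lay within the macrophage range. In a pool of cells, a region open in fewer cells and a region less open in each cell cannot be told apart.

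Levels are log2 CPM, the authors' log2-scaled counts per unit of library size (CPM) with a prior of 3 reads, which understates differences at low regions. The mean level of the 34 regions ran from 1.50 at Ifi213 +19.2 kb to 6.10 at Aim2 -1.5 kb, with a median of 4.14, against 3.67 over all regions. The range of the 9 group means had a median of 1.23 over the members, against 0.833 over all regions. MP had the highest mean at 18 of the 34 regions, MM at 5, CL at 3, PL, PT, MC and MT at 2 each, and CT and ML at 0. The matching shares over all regions are not given, so these counts do not set the cluster apart. Differences are log2 differences from a limma fit of all 9 groups, given ± SE, and a region was called at an adjusted p under 0.05 over all 53796 regions. Shares of all regions set beside counts are for this call. Counts at an unadjusted p or by voom are given without their own shares and cannot be read against these. By the F test over the 9 groups, 26 of the 34 members were called, beside 63.7% of all regions.

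**Figure D1:**
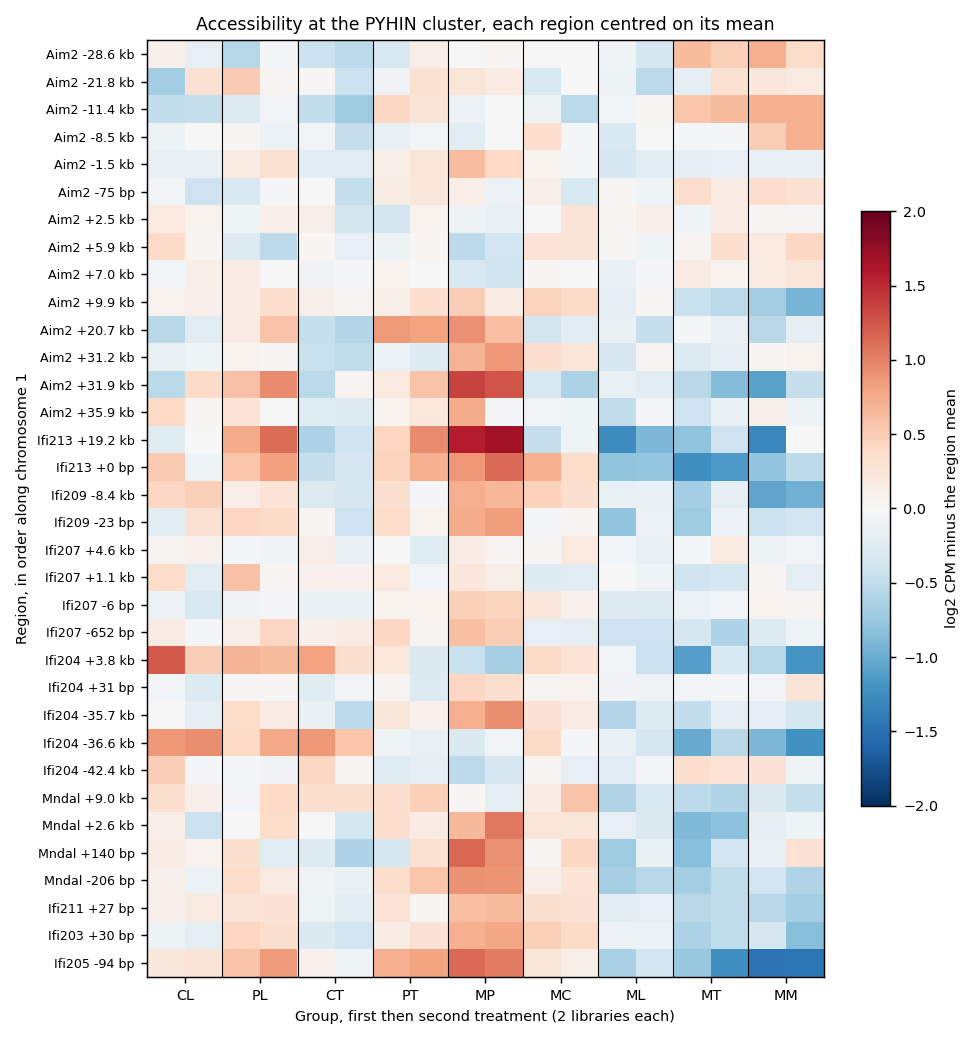
Heat map of log2 CPM in each of the 18 libraries, each region minus its own mean (colour, clipped at 2), with regions in order along chromosome 1 and groups left to right; Ifi204 distances are from the body's upper end. The MP columns are red over most regions from Aim2 +20.7 kb to Ifi205, while Aim2 -11.4 kb is red in MT and MM and Ifi204 -36.6 kb is red in CL, PL and CT.

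The 4 single stimuli were each set against medium. After polyI:C alone (MP against MM), 17 of the 34 members were higher and 4 lower, beside 14.3% and 8.28% of all regions, and the members' median difference was 0.69, against -0.01 over all regions. All 12 called regions outside Aim2 were higher, while Aim2 had 5 higher and 4 lower. After CpG alone (MC against MM), 11 were higher and 2 lower, beside 17.2% and 8.79% of all regions, with a median of 0.19, against 0.01. After LPS alone (ML against MM), 6 were higher and 3 lower, beside 15.0% and 9.55%, with a median of -0.12, against -0.00239. Without MM replicate 2, 5 were called after LPS in place of 9. After TNF alone (MT against MM), 0 were higher and 1 was lower with limma, beside 5.79% and 0.573%. At an unadjusted p under 0.05, a looser threshold than those shares use, 3 were higher and 4 lower. Voom on reads recovered from the values gave 0 and 1. The TNF count was 0 with MM replicate 2 left out and 2 with either MT library left out. The shares after CpG and polyI:C in the higher direction stood above the background, and those after LPS and TNF stood near or below it.

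**Figure D2:**
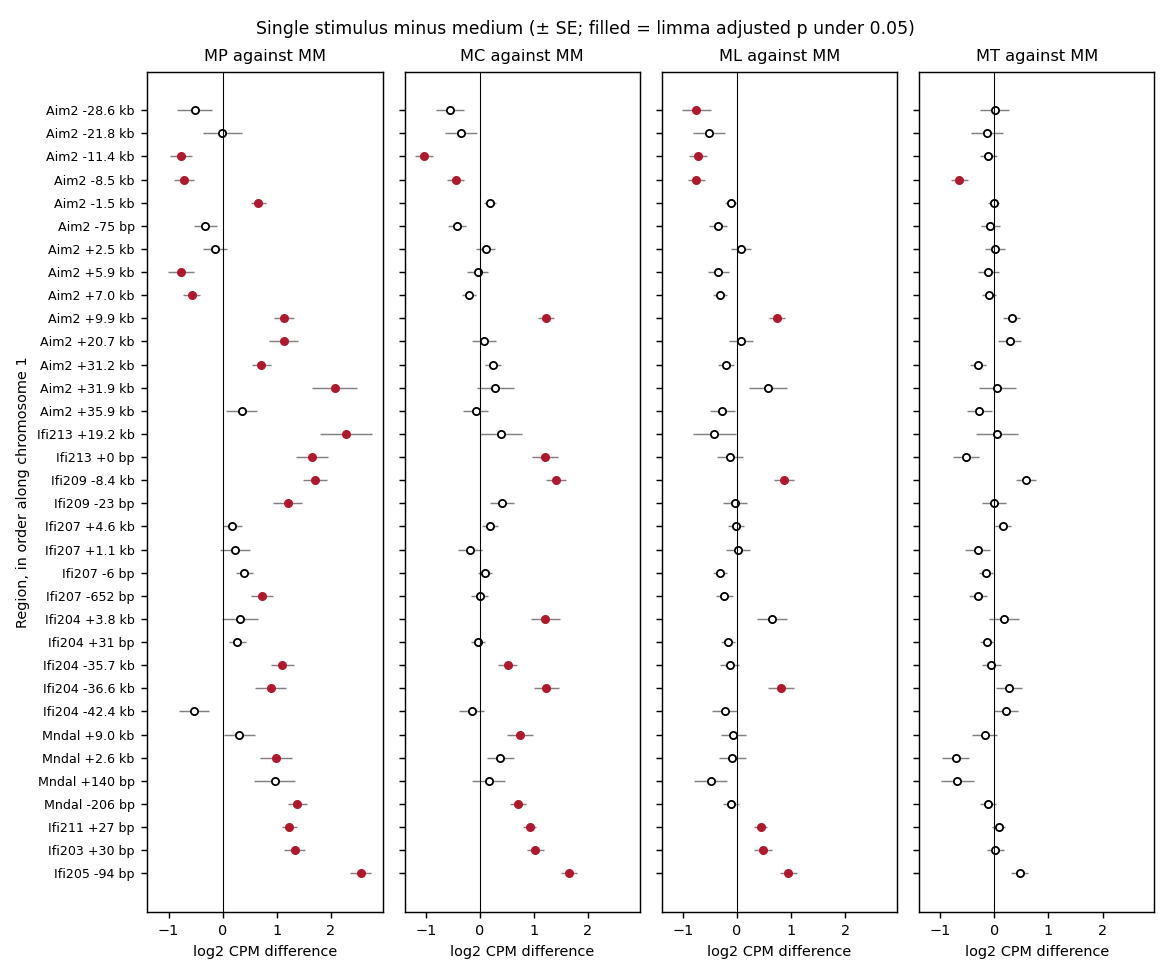
Log2 CPM difference (x axis, bars are SE) of each of the 34 regions for MP, MC, ML and MT against MM, filled red where the limma adjusted p was under 0.05. Filled points to the right number 17, 11, 6 and 0 in the MP, MC, ML and MT panels, and those to the left number 4, 2, 3 and 1.

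The stimuli were then compared directly. In MP against ML, 17 members were higher and 0 lower, beside 6.24% and 5.19% of all regions; at an unadjusted p under 0.05 the counts were 20 and 0, and voom gave 20 and 0. In MC against ML, 7 were higher and 0 lower, beside 3.74% and 1.93%. At an unadjusted p under 0.05 the counts were 16 and 0, and voom gave 11 and 0. The percentages are for the adjusted limma call, not for the unadjusted or voom counts. That count of 7 was 1 or 3 with MC replicate 1 or 2 left out, and 2 or 4 with ML replicate 1 or 2 left out. In MP against MC, 7 were higher and 1 lower, beside 5.20% and 7.47%, and the count of 8 was 5 without MC replicate 1 and 5 without MC replicate 2. With quantile normalization the split of MP against MC was 7 and 0. The median differences were 0.67 for MP against ML, 0.36 for MC against ML and 0.31 for MP against MC, against all-region medians of 0.00, 0.03 and 0.00.

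Prior treatment was compared with prior medium under the same second treatment. After polyI:C then LPS (PL against ML), 14 members were higher and 0 lower, beside 13.5% and 9.36% of all regions; at an unadjusted p under 0.05 the counts were 17 and 0, and voom gave 14 and 0. After CpG then LPS (CL against ML), 7 were higher and 1 lower, beside 9.95% and 5.76%. After polyI:C then TNF (PT against MT), 17 were higher and 0 lower, beside 15.0% and 12.7%. At an unadjusted p under 0.05 the counts were 18 and 2, and voom gave 18 and 1. As above, the percentages do not apply to the unadjusted or voom counts. With quantile normalization 14 were higher and 2 lower in PT against MT. After CpG then TNF (CT against MT), 9 were higher and 3 lower, beside 10.6% and 5.65%. The median differences were 0.43 for PL, 0.18 for CL, 0.53 for PT and 0.06 for CT, against all-region medians of 0.02, 0.04, 0.00 and 0.02. PL and CL share the ML libraries, and PT and CT share the MT libraries.

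Single libraries moved these counts. The PL count of 14 was 9 with either ML library left out and 7 with PL replicate 2 left out. The CL count of 8 was 2 without CL replicate 1, 5 without CL replicate 2, and 4 or 5 with ML replicate 1 or 2 left out. The PT count of 17 was 11 without MT replicate 1. The CT count of 12 was 5 without CT replicate 2, and 6 with either MT library left out.

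**Figure D3:**
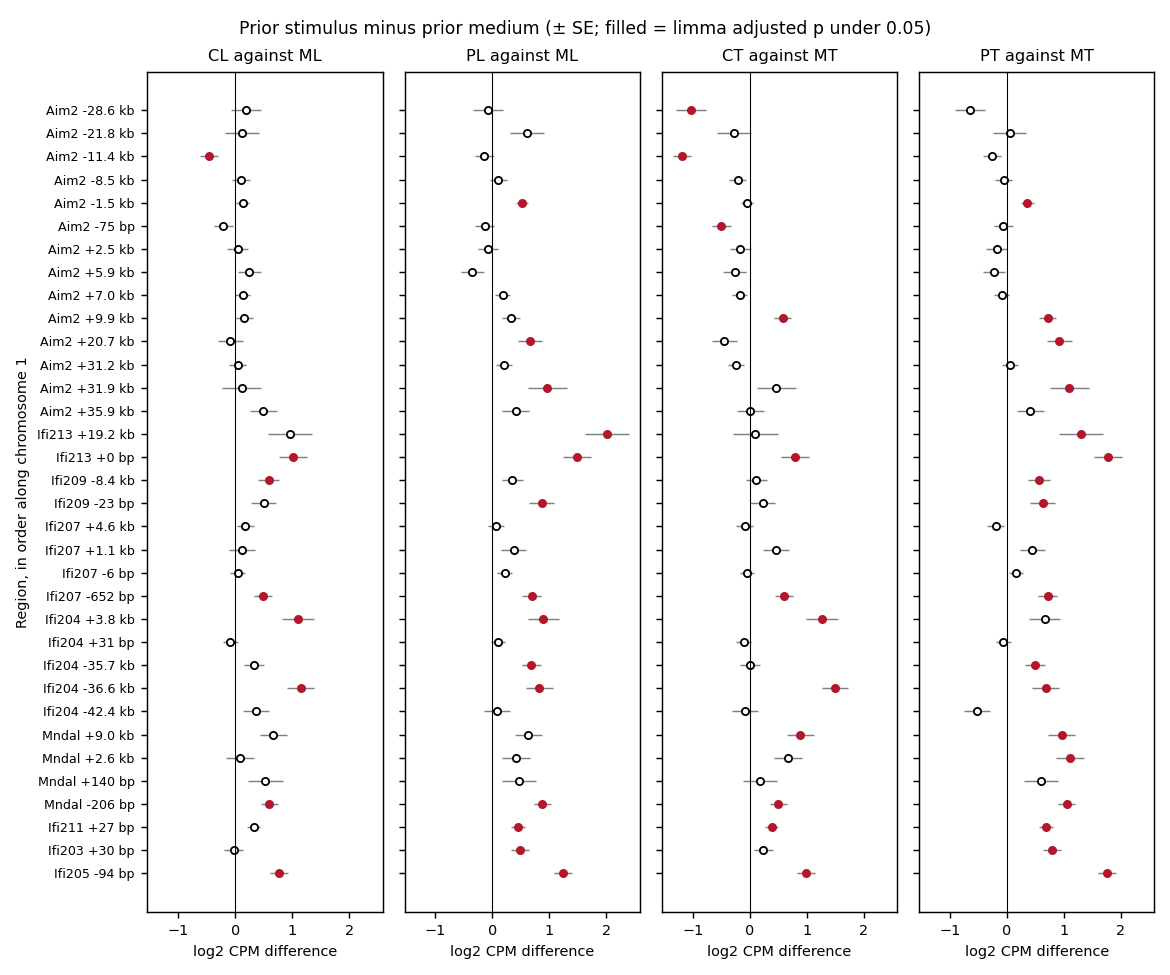
Log2 CPM difference (x axis, bars are SE) of each of the 34 regions for CL and PL against ML and for CT and PT against MT, filled red where the limma adjusted p was under 0.05. Filled points to the right number 7, 14, 9 and 17 in the CL, PL, CT and PT panels.

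The 2 prior treatments were also set against each other. Under TNF (CT against PT), 1 member was higher and 10 lower after CpG, beside 17.3% and 14.6% of all regions, and the count of 11 was 6 without CT replicate 2. Under LPS (CL against PL), 1 was higher and 3 lower, beside 4.24% and 4.23%. That count of 4 was 0 without CL replicate 1, 1 without CL replicate 2, 1 without PL replicate 1 and 0 without PL replicate 2, and the split was 0 and 4 with libraries shifted to 1 median. The median differences were -0.35 under TNF and -0.17 under LPS, against 0.02 and 0.01 over all regions.

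Aim2, the inflammasome sensor, had a RefSeq body from 173349547 to 173466040, and its 14 regions lay -28.6 to +35.9 kb from the listed start site. The body begins well before that site, where no promoter window was listed, so regions at negative distances also lie inside the gene. Its most accessible region was not the listed start site but Aim2 -1.5 kb (chr1:173418897-173419398). There log2 CPM was 5.95 and 5.95 in CL, 6.28 and 6.40 in PL, 5.88 and 5.88 in CT, 6.22 and 6.35 in PT, 6.71 and 6.49 in MP, 6.16 and 6.08 in MC, 5.76 and 5.89 in ML, 5.92 and 5.93 in MT and 5.93 and 5.95 in MM. The groups that had received polyI:C at either step were the highest, and the libraries of MP, PL and PT lay above those of all other groups. The difference was 0.66 ± 0.13 for MP against MM (adjusted p = 2.74e-04), 0.51 ± 0.11 for PL against ML and 0.36 ± 0.11 for PT against MT. The PT call was lost without MT replicate 1, MT replicate 2 or PT replicate 2 (adjusted p of 0.0732, 0.0554 and 0.0893).

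The region over the Aim2 start site (-75 bp) had 4.80 and 4.45 log2 CPM in CL, 4.56 and 4.84 in PL, 4.85 and 4.38 in CT, 5.01 and 5.09 in PT, 4.99 and 4.75 in MP, 4.98 and 4.55 in MC, 4.89 and 4.77 in ML, 5.21 and 5.02 in MT and 5.22 and 5.16 in MM. No single stimulus was called there, with differences from MM of -0.32 (MP), -0.42 (MC), -0.35 (ML) and -0.07 (MT). The MP, MC and ML libraries all lay below both MM libraries, and the MT libraries overlapped them. CT was lower than MT by -0.50 ± 0.17 (adjusted p = 0.0356) and lower than PT by -0.44 ± 0.17 (adjusted p = 0.0444). Without CT replicate 2 these adjusted p-values were 0.473 and 0.522. The call against MT was also lost without MT replicate 1 or MT replicate 2 (adjusted p of 0.231 and 0.0689), and that against PT without PT replicate 2 (adjusted p = 0.138).

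Aim2 -11.4 kb, before the start site, was most open in medium. This region (chr1:173408951-173409452) had 4.08 and 4.09 log2 CPM in CL, 4.30 and 4.52 in PL, 4.07 and 3.86 in CT, 4.98 and 4.82 in PT, 4.45 and 4.57 in MP, 4.46 and 4.02 in MC, 4.51 and 4.58 in ML, 5.12 and 5.20 in MT and 5.27 and 5.28 in MM. MM and MT were the highest and CT the lowest, with no library of CT above any of MT or MM. The region fell by 1.03 ± 0.16 after CpG (adjusted p = 5.21e-06), by 0.73 ± 0.16 after LPS and by 0.77 ± 0.20 after polyI:C. CT was lower than MT by -1.19 ± 0.16 (adjusted p = 1.19e-06) and lower than PT by -0.94 ± 0.16. CL was lower than ML by -0.46 ± 0.16 (adjusted p = 0.045), a call lost without any 1 of the CL and ML libraries (adjusted p of 0.137 to 0.205).

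Its neighbour Aim2 -8.5 kb was the single member called after TNF, at 5.12 and 5.11 log2 CPM in MT, against 5.66 and 5.87 in MM. The difference was -0.65 ± 0.15 (adjusted p = 0.0047, and 0.138 without MM replicate 2). The same region fell by 0.75 ± 0.15 after LPS, by 0.71 ± 0.19 after polyI:C and by 0.45 ± 0.15 after CpG. The polyI:C and CpG calls were lost without MM replicate 2 (adjusted p of 0.0537 and 0.245), and the CpG call also without MC replicate 2 (adjusted p = 0.351). Aim2 -28.6 kb fell by 0.76 ± 0.27 after LPS, a call lost without any 1 of the ML and MM libraries (adjusted p of 0.0529 to 0.224), and was lower in CT than MT by -1.03 ± 0.27 (lost without CT replicate 2 or MT replicate 1, adjusted p of 0.0561 and 0.0602).

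Within the gene, Aim2 +9.9 kb (chr1:173430248-173430749) had 4.75 and 4.79 log2 CPM in CL, 4.83 and 5.03 in PL, 4.79 and 4.74 in CT, 4.80 and 5.01 in PT, 5.17 and 4.83 in MP, 5.12 and 5.06 in MC, 4.50 and 4.72 in ML, 4.24 and 4.14 in MT and 3.99 and 3.75 in MM. The libraries of all 8 other groups lay above both MM libraries. The region rose by 1.13 ± 0.19 after polyI:C, 1.22 ± 0.15 after CpG (adjusted p = 8.9e-08) and 0.74 ± 0.15 after LPS, and PT was higher than MT by 0.72 ± 0.15. CT was higher than MT by 0.58 ± 0.15 (lost without CT replicate 1 or MT replicate 2, adjusted p of 0.0553 and 0.0748).

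The regions Aim2 +20.7 kb and Aim2 +31.9 kb were high where polyI:C had been given. Aim2 +20.7 kb (chr1:173441027-173441528) had 2.86 and 3.20 log2 CPM in CL, 3.57 and 3.98 in PL, 2.95 and 2.82 in CT, 4.26 and 4.22 in PT, 4.33 and 4.01 in MP, 3.04 and 3.19 in MC, 3.28 and 2.95 in ML, 3.39 and 3.27 in MT and 2.86 and 3.23 in MM. All 6 libraries of PL, PT and MP lay above the 12 others. The difference was 1.13 ± 0.27 for MP against MM, 0.92 ± 0.22 for PT against MT and -1.36 ± 0.22 for CT against PT (adjusted p = 1.96e-05). MP was higher than MC by 1.05 ± 0.27 (adjusted p = 0.00622). PL was higher than ML by 0.66 ± 0.22, and CL was lower than PL by -0.75 ± 0.22. Those 2 calls were lost without PL replicate 2 (adjusted p of 0.282 and 0.301), and also without ML replicate 2 (adjusted p = 0.233) and without CL replicate 1 (adjusted p = 0.251).

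Aim2 +31.9 kb (chr1:173452288-173452789), a low region with 6 to 51 reads, had 1.41 and 2.32 log2 CPM in CL, 2.54 and 2.90 in PL, 1.40 and 2.00 in CT, 2.14 and 2.52 in PT, 3.30 and 3.21 in MP, 1.63 and 1.31 in MC, 1.79 and 1.72 in ML, 1.39 and 1.08 in MT and 0.88 and 1.49 in MM. The PL, PT and MP libraries lay above those of CT, MC, ML, MT and MM, and CL overlapped PT. It rose by 2.07 ± 0.42 after polyI:C (adjusted p = 3.24e-04) and exceeded MC by 1.79 ± 0.42. In PL the level exceeded that in ML by 0.96 ± 0.34 (lost without any 1 of the PL and ML libraries). PT exceeded MT by 1.09 ± 0.34 (lost without MT replicate 2 or PT replicate 2). With quantile normalization neither was called, at 0.73 for PL and 0.61 for PT (limma adjusted p of 0.156 and 0.228).

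Of the remaining Aim2 regions, +31.2 kb rose by 0.71 ± 0.18 after polyI:C and +7.0 kb fell by 0.57 ± 0.16. Aim2 +5.9 kb fell by 0.76 ± 0.24, which was not called when MM replicate 2 was left out (adjusted p = 0.112). Aim2 +31.2 kb, next to Aim2 +31.9 kb, was not called in PL against ML or in PT against MT. Its mean log2 CPM was 4.88 in PL, 4.68 in ML, 4.65 in PT, 4.60 in MT and 4.89 in MM. Aim2 +2.5 kb, -21.8 kb and +35.9 kb were called in none of the 13 comparisons.

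Ifi204 is the mouse gene most often set beside human IFI16, as a DNA sensor upstream of STING. The region at the end of its body (+31 bp, chr1:173766788-173767289) was its most accessible, at 5.86 and 5.64 log2 CPM in CL, 5.93 and 5.93 in PL, 5.67 and 5.85 in CT, 5.97 and 5.64 in PT, 6.32 and 6.24 in MP, 5.96 and 5.98 in MC, 5.84 and 5.84 in ML, 5.87 and 5.87 in MT and 5.85 and 6.16 in MM. It was called in none of the 13 comparisons, and only the MP libraries stood above both MM libraries.

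Further from that end, Ifi204 -36.6 kb (chr1:173803379-173803880), between Ifi204 and Mndal, had 3.99 and 4.05 log2 CPM in CL, 3.52 and 3.88 in PL, 3.98 and 3.66 in CT, 3.04 and 2.97 in PT, 2.83 and 3.07 in MP, 3.50 and 3.07 in MC, 2.97 and 2.78 in ML, 2.10 and 2.55 in MT and 2.21 and 1.91 in MM. CL and CT were the highest group means and MM the lowest, which sets the region apart in order from those led by MP. It rose by 1.23 ± 0.23 after CpG (adjusted p = 1.13e-04), CL was higher than ML by 1.15 ± 0.23 (adjusted p = 8.39e-04) and CT was higher than MT by 1.49 ± 0.23 (adjusted p = 1.54e-05). It was also the 1 member that was higher in CT than PT, by 0.82 ± 0.23, a call lost without CT replicate 1 (adjusted p = 0.09). The PL libraries exceeded ML by 0.82 ± 0.23 (lost without ML replicate 2 or PL replicate 2, adjusted p of 0.0965 and 0.148). It rose by 0.89 ± 0.29 after polyI:C (lost without MM replicate 2) and by 0.81 ± 0.23 after LPS (lost without ML replicate 1 or MM replicate 2). With quantile normalization these differences were 0.54 and 0.51, and neither was called. PT was higher than MT by 0.68 ± 0.23 (lost without MT replicate 1, PT replicate 1 or PT replicate 2). That call was also lost with quantile normalization, at 0.51 (limma adjusted p = 0.108).

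Inside the gene, Ifi204 +3.8 kb (chr1:173763041-173763542) had 4.32 and 3.58 log2 CPM in CL, 3.77 and 3.72 in PL, 3.89 and 3.41 in CT, 3.29 and 2.80 in PT, 2.64 and 2.42 in MP, 3.48 and 3.36 in MC, 3.04 and 2.66 in ML, 1.99 and 2.78 in MT and 2.51 and 1.91 in MM. CL, PL and CT had the highest means, and MP overlapped MM. It rose by 1.21 ± 0.28 after CpG (adjusted p of 0.0519 without MM replicate 2). CL was higher than ML by 1.10 ± 0.28 (adjusted p of 0.194 without CL replicate 1, 0.0954 without ML replicate 2) and CT than MT by 1.26 ± 0.28 (adjusted p of 0.0776 without MT replicate 1). In PL the level exceeded that in ML by 0.89 ± 0.28 (adjusted p of 0.175, 0.0945 and 0.0838 without ML replicate 2, PL replicate 1 or PL replicate 2).

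Ifi204 -35.7 kb (chr1:173802536-173803037), next to Ifi204 -36.6 kb, had its highest values in MP, at 5.14 and 5.36 log2 CPM, against 4.23 and 4.08 in MM. It rose by 1.10 ± 0.21 after polyI:C (adjusted p = 1.7e-04) and exceeded ML by 1.24 ± 0.21. PL was higher than ML by 0.68 ± 0.17 (adjusted p of 0.111 without ML replicate 1 and 0.0696 without PL replicate 1), and PT was higher than MT by 0.49 ± 0.17 (adjusted p of 0.311 without MT replicate 1 and 0.0909 without PT replicate 1). After CpG the difference was 0.51 ± 0.17, a call lost without any 1 of the MC and MM libraries (adjusted p of 0.0514 to 0.178). Ifi204 -42.4 kb was called in none of the 13 comparisons.

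Ifi205, whose product p205 is reported in mouse macrophages to regulate expression of the ASC adaptor, showed the widest response of any start site. Its region (-94 bp, chr1:174031599-174032100) had 5.17 and 5.21 log2 CPM in CL, 5.53 and 5.79 in PL, 5.03 and 4.87 in CT, 5.67 and 5.74 in PT, 6.08 and 6.00 in MP, 5.20 and 5.07 in MC, 4.29 and 4.56 in ML, 4.20 and 3.71 in MT and 3.47 and 3.49 in MM. The libraries of every other group lay above both MM libraries, and the MP libraries lay above all others. It rose by 2.56 ± 0.19 after polyI:C (adjusted p = 3.94e-12), 1.65 ± 0.16 after CpG (adjusted p = 2.67e-10) and 0.94 ± 0.16 after LPS (adjusted p = 2.08e-05). After TNF the difference was 0.47 and was not called. Prior treatment gave 1.23 ± 0.16 for PL and 0.76 ± 0.16 for CL against ML, and 1.75 ± 0.16 for PT and 0.99 ± 0.16 for CT against MT. CT was lower than PT by -0.76 ± 0.16, and MP exceeded MC by 0.91 ± 0.19 and ML by 1.61 ± 0.19. These 10 calls were kept in every alternative run. MC exceeded ML by 0.70 ± 0.16, lost without MC replicate 1 or ML replicate 1 (adjusted p of 0.13 and 0.162). The window printed whole above, with its 2 ISRE cores, lies within this region.

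**Figure D4:**
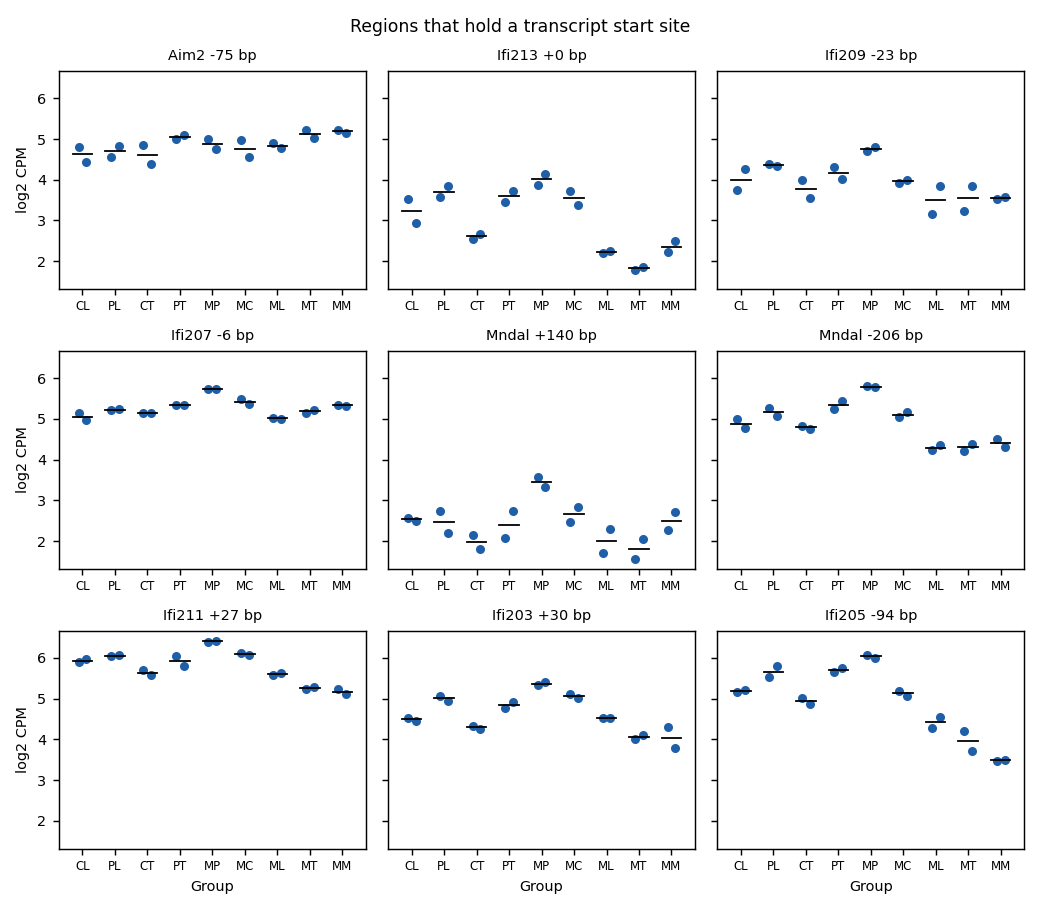
Log2 CPM (y axis, shared scale) at the 9 regions that hold a start site, as 2 libraries (points) and their mean (bar) per group. Ifi205 spans the widest range, with MP at 6.00 and 6.08 and MM at 3.47 and 3.49, while Aim2 has its highest mean in MM.

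The start-site regions of the neighbouring genes had the same group, MP, at the top. Ifi211 (+27 bp, chr1:173912769-173913270) had 5.89 and 5.97 log2 CPM in CL, 6.04 and 6.07 in PL, 5.70 and 5.58 in CT, 6.06 and 5.82 in PT, 6.39 and 6.43 in MP, 6.11 and 6.07 in MC, 5.59 and 5.63 in ML, 5.23 and 5.28 in MT and 5.23 and 5.12 in MM. MP lay above all other libraries, and MT lay close to MM. It rose by 1.24 ± 0.14 after polyI:C (adjusted p = 4.29e-08), 0.92 ± 0.12 after CpG (adjusted p = 1.63e-07) and 0.44 ± 0.12 after LPS (adjusted p of 0.0595 without ML replicate 2 and 0.0807 without MM replicate 2). PT was higher than MT by 0.68 ± 0.12 (adjusted p = 5.58e-05). In PL the level exceeded that in ML by 0.45 ± 0.12 (adjusted p of 0.0624 without ML replicate 1 and 0.0527 without PL replicate 2). CT was higher than MT by 0.39 ± 0.12, a call lost without any 1 of the CT and MT libraries (adjusted p of 0.0517 to 0.156).

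Ifi203 (+30 bp, chr1:173942212-173942713) had 4.53 and 4.46 log2 CPM in CL, 5.06 and 4.96 in PL, 4.34 and 4.26 in CT, 4.78 and 4.93 in PT, 5.34 and 5.40 in MP, 5.10 and 5.02 in MC, 4.52 and 4.52 in ML, 4.00 and 4.12 in MT and 4.30 and 3.78 in MM. MP was again above every other library. It rose by 1.33 ± 0.20 after polyI:C (adjusted p = 3.08e-06) and 1.02 ± 0.16 after CpG (adjusted p = 5.88e-06), and PT was higher than MT by 0.79 ± 0.16. The differences of 0.48 ± 0.16 after LPS and 0.49 ± 0.16 for PL against ML were called, but the LPS call was lost without ML replicate 1, ML replicate 2 or MM replicate 2 (adjusted p of 0.124, 0.107 and 0.459) and the PL call without any 1 of its 4 libraries (adjusted p of 0.0777 to 0.149). CL was lower than PL by -0.51 ± 0.16 (lost without any 1 of its libraries, adjusted p of 0.129 to 0.211) and CT lower than PT by -0.55 ± 0.16 (lost without CT replicate 2 or PT replicate 2, adjusted p of 0.0829 and 0.0682). Part of this region shares the sequence run with Mndal named above.

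Mndal, an interferon-inducible nuclear protein gene, had 2 listed start sites. The region over the upstream site (-206 bp, chr1:173880143-173880644) had 5.00 and 4.77 log2 CPM in CL, 5.26 and 5.07 in PL, 4.84 and 4.76 in CT, 5.25 and 5.45 in PT, 5.80 and 5.77 in MP, 5.03 and 5.17 in MC, 4.24 and 4.35 in ML, 4.21 and 4.38 in MT and 4.51 and 4.30 in MM. MP was the highest, and ML, MT and MM overlapped. It rose by 1.38 ± 0.18 after polyI:C (adjusted p = 4.13e-07) and 0.70 ± 0.15 after CpG (adjusted p = 4.54e-04). The PL libraries exceeded ML by 0.87 ± 0.15 (adjusted p = 5.76e-05), and PT exceeded MT by 1.05 ± 0.15 (adjusted p = 2.91e-06). CL was higher than ML by 0.59 ± 0.15 (lost without CL replicate 1 or ML replicate 1, adjusted p of 0.112 and 0.083) and CT than MT by 0.50 ± 0.15 (lost without CT replicate 1, CT replicate 2 or MT replicate 1, adjusted p of 0.106, 0.0641 and 0.152).

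The other Mndal regions were lower in level. Mndal +140 bp, over the downstream site, had 3.56 and 3.34 log2 CPM in MP, 2.48 and 2.83 in MC, 1.71 and 2.29 in ML, 1.56 and 2.04 in MT and 2.27 and 2.71 in MM. It was not called against MM after any single stimulus. Mndal +2.6 kb was higher in PT than MT by 1.10 ± 0.25 (adjusted p = 0.00117), at 3.20 and 3.03 log2 CPM in PT, against 1.99 and 2.04 in MT. It rose by 0.99 ± 0.30 after polyI:C (adjusted p of 0.0631 without MM replicate 1 and 0.0554 without MP replicate 2). Mndal +9.0 kb was higher in PT than MT by 0.96 ± 0.24 and in CT than MT by 0.88 ± 0.24, with the CT call lost without CT replicate 2 or MT replicate 2 (adjusted p of 0.0605 and 0.0695). After CpG it rose by 0.74 ± 0.24 (lost without MC replicate 2 or MM replicate 2). This call was also lost with quantile normalization, at 0.54 (limma adjusted p = 0.111).

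Ifi213 had 2 regions. The one on its start site (chr1:173599022-173599523) had 3.53 and 2.93 log2 CPM in CL, 3.57 and 3.84 in PL, 2.56 and 2.68 in CT, 3.46 and 3.73 in PT, 3.88 and 4.14 in MP, 3.72 and 3.39 in MC, 2.20 and 2.24 in ML, 1.79 and 1.86 in MT and 2.21 and 2.49 in MM. Both ML libraries lay within or below the MM range, and the MT libraries were the lowest of all. It rose by 1.66 ± 0.30 after polyI:C (adjusted p = 5.95e-05) and 1.20 ± 0.24 after CpG (adjusted p = 2.31e-04). In PL the level exceeded that in ML by 1.48 ± 0.24, and PT exceeded MT by 1.77 ± 0.24 (adjusted p = 1.7e-06). CT was lower than PT by -0.98 ± 0.24. CL was higher than ML by 1.01 ± 0.24 (lost without CL replicate 1, adjusted p = 0.146) and CT than MT by 0.79 ± 0.24 (lost without any 1 of its libraries, adjusted p of 0.0625 to 0.139).

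Ifi213 +19.2 kb (chr1:173579803-173580304) was the least accessible member, with 3 to 43 reads. It had 1.26 and 1.49 log2 CPM in CL, 2.24 and 2.61 in PL, 0.87 and 1.10 in CT, 1.93 and 2.44 in PT, 3.07 and 3.17 in MP, 1.04 and 1.41 in MC, 0.25 and 0.59 in ML, 0.70 and 1.08 in MT and 0.19 and 1.49 in MM. The 6 libraries of PL, PT and MP were above the 12 others. It rose by 2.28 ± 0.48 after polyI:C (adjusted p = 4.71e-04), exceeded ML by 2.70 ± 0.48, and was higher in PL than ML by 2.01 ± 0.39 (adjusted p = 3.01e-04). PT was higher than MT by 1.30 ± 0.39 and CT lower than PT by -1.20 ± 0.39. With quantile normalization the difference of PT from MT was 0.71 and was not called (limma adjusted p = 0.204). The PT call was lost without MT replicate 1 or PT replicate 2 (adjusted p of 0.114 and 0.13), and the CT call without CT replicate 1, CT replicate 2 or PT replicate 2 (0.0907, 0.0669 and 0.18).

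Ifi209 had its strongest single-stimulus differences at -8.4 kb (chr1:173622170-173622671), with 4.46 and 4.52 log2 CPM in CL, 4.18 and 4.32 in PL, 3.76 and 3.70 in CT, 4.36 and 4.00 in PT, 4.78 and 4.70 in MP, 4.50 and 4.37 in MC, 3.89 and 3.91 in ML, 3.37 and 3.87 in MT and 2.99 and 3.08 in MM. All other libraries lay above those of MM. It rose by 1.70 ± 0.23 after polyI:C (adjusted p = 4.95e-07), 1.40 ± 0.19 after CpG (adjusted p = 2.82e-07) and 0.87 ± 0.19 after LPS (adjusted p = 6.41e-04). CL was higher than ML by 0.59 ± 0.19 (lost without any 1 of its libraries, adjusted p of 0.108 to 0.143) and PT than MT by 0.56 ± 0.19 (lost without MT replicate 1 or PT replicate 1, adjusted p of 0.357 and 0.163). Its start-site region (-23 bp) had 4.70 and 4.80 log2 CPM in MP, against 3.52 and 3.57 in MM, and rose by 1.20 ± 0.27 after polyI:C (adjusted p = 0.00111). PL was higher than ML there by 0.86 ± 0.22 (adjusted p of 0.205 without ML replicate 1) and PT than MT by 0.63 ± 0.22 (adjusted p of 0.433 without MT replicate 1 and 0.118 without PT replicate 1).

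Ifi207, whose product is reported in mouse macrophages to promote transcription of cytokine genes, had 4 regions within its body or just before it. Its most accessible region, over the start site (-6 bp, chr1:173741565-173742066), had 5.15 and 4.96 log2 CPM in CL, 5.21 and 5.25 in PL, 5.15 and 5.14 in CT, 5.35 and 5.35 in PT, 5.74 and 5.72 in MP, 5.50 and 5.35 in MC, 5.02 and 5.01 in ML, 5.15 and 5.22 in MT and 5.35 and 5.32 in MM. MP was the highest, and no single stimulus was called against MM, although MP exceeded ML by 0.72 ± 0.16 (adjusted p = 0.00174). Ifi207 -652 bp, just before it, had 4.81 and 4.63 log2 CPM in CL, 4.79 and 5.06 in PL, 4.75 and 4.80 in CT, 5.07 and 4.71 in PT, 5.26 and 5.15 in MP, 4.49 and 4.46 in MC, 4.24 and 4.25 in ML, 4.32 and 4.03 in MT and 4.39 and 4.57 in MM. The libraries of CL, PL, CT, PT and MP lay above all of MC, ML, MT and MM. PL was higher than ML by 0.69 ± 0.16 (adjusted p of 0.0654 without PL replicate 2), CL than ML by 0.48 ± 0.16 (lost without any 1 of its libraries, adjusted p of 0.0653 to 0.261), PT than MT by 0.71 ± 0.16 (adjusted p = 0.00119) and CT than MT by 0.60 ± 0.16 (adjusted p of 0.0708 without CT replicate 2 and 0.156 without MT replicate 2). After polyI:C it rose by 0.73 ± 0.20 (adjusted p of 0.0537 without MM replicate 1). Ifi207 +4.6 kb and +1.1 kb were called in none of the 13 comparisons.

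Among the 9 regions on a start site, 6 were higher after polyI:C alone, 5 after CpG, 3 after LPS and 0 after TNF by limma, beside 14.3%, 17.2%, 15.0% and 5.79% of all regions, and 0 were lower. At an unadjusted p under 0.05, 1 start-site region was higher and 2 were lower after TNF, and voom also called 0 of the members higher there. The 7 of these regions whose window held GAAANNGAAA had median differences from MM of 1.33 (MP), 0.92 (MC), -0.11 (ML) and -0.11 (MT). After polyI:C 5 of those 7 were called higher. The start-site regions without that core went opposite ways. Ifi209 -23 bp had means of 4.75 log2 CPM in MP and 3.54 in MM, and Aim2 -75 bp had 4.87 and 5.19. Whether the core goes with the response, apart from the start site, was not tested. The 25 regions that held no start site had medians of 0.32, 0.10, -0.14 and -0.06 in the same order of groups. The 14 Aim2 regions had medians of -0.07, -0.06, -0.29 and -0.08, and the 20 others had 0.97, 0.46, -0.08 and -0.03.

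Other PYHIN genes of the cluster, Ifi202b, Ifi206, Ifi208 and Ifi214, had 9 regions together. After polyI:C 4 were higher and 2 lower, beside 14.3% and 8.28% of all regions. After CpG the counts were 4 and 2, beside 17.2% and 8.79%, and after LPS they were 1 and 2, beside 15.0% and 9.55%. After TNF their differences ran from -0.66 to 0.47. All 3 Ifi206 regions were called higher after polyI:C and after CpG. The one near a gene end, at chr1:173491041-173491542, rose by 1.95 after polyI:C, 1.69 after CpG and 0.81 after LPS, and the other 2 were not called after LPS. The 2 Ifi208 regions differed in direction. The Ifi208 region inside the gene, at chr1:173694200-173694701, fell by 1.24, 1.31 and 1.25 after the same stimuli. The Ifi208 region near a gene end, at chr1:173673629-173674130, rose by 2.08 after polyI:C and 1.13 after CpG, and its difference of 0.12 after LPS was not called.

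Partner genes were read from lists of the pathway. The 14 genes of the AIM2 inflammasome and DNA sensing had 50 regions, of which 15 were higher and 1 lower after polyI:C, 21 and 1 after CpG, 12 and 1 after LPS and 5 and 1 after TNF. Over all regions the shares higher and lower were 14.3% and 8.28% after polyI:C, 17.2% and 8.79% after CpG, 15.0% and 9.55% after LPS and 5.79% and 0.573% after TNF. Zbp1, a sensor of Z-form nucleic acid, rose by 1.67 ± 0.16 after polyI:C and 1.34 ± 0.13 after CpG. Tbk1, the kinase that activates IRF3 downstream of STING, rose by 1.67 ± 0.19 after polyI:C, 1.59 ± 0.15 after CpG and 1.51 ± 0.15 after LPS at its own region. Gsdmd rose by 1.55 ± 0.25 after polyI:C and Nlrp3 by 1.37 ± 0.14 after LPS. An Il1b region (chr2:129410301-129410802) rose by 2.44 ± 0.25 after CpG and 2.59 ± 0.25 after LPS. Another Il1b region (chr2:129360143-129360644) was lower in MP than MC by -1.40 ± 0.25 and in PT than MT by -1.34 ± 0.20. The 12 genes of type I interferon signalling, 11 of them with a region, had 70 regions, of which 24 were higher and 5 lower after polyI:C, 20 and 3 after CpG and 18 and 2 after LPS, with 5 higher and 0 lower after TNF, beside the same shares of all regions.

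The mean profile of the 34 regions, each centred on its own mean, was 0.05 in CL, 0.22 in PL, -0.14 in CT, 0.17 in PT, 0.40 in MP, 0.09 in MC, -0.26 in ML, -0.29 in MT and -0.23 in MM. Of 17264 regions assigned to other protein-coding genes with a range of group means of at least 1, those most like this profile over the 9 group means lay inside Rsad2 (Pearson r = 0.991), Phldb2 (0.990), Iigp1 (0.989), Scpep1 (0.987) and Il15 (0.986). These values describe likeness among 9 means that share libraries, and the best of many candidates is high by selection. Rsad2, which encodes the antiviral protein viperin, had group means of 2.77 in CL, 3.70 in PL, 1.80 in CT, 3.27 in PT, 4.44 in MP, 2.58 in MC, 1.28 in ML, 0.81 in MT and 1.04 in MM log2 CPM.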

How the data were processed

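ATAC-seq was read in 18 libraries of 9 groups, grouped by the labels. Before deposit, reads were processed on GRCm38 (mm10) with MACS3 3.0.0b1, featureCounts, Picard, SAMtools 1.9 and Bowtie2 2.2.5, as listed without roles per the submitters' processing notes; settings are not given in the sources used here. The authors deposited log2 CPM per region. All values returned whole reads within 0.01 with a prior of 3 reads. Regions were used without a filter and assigned to genes with RefSeq positions. Limma 3.58.1 in R 4.3.3 fitted 9 group means with a variance trend on mean level (8 residual degrees of freedom), MP entering as 1 sample, and p-values were adjusted by Benjamini-Hochberg over all 53796 regions. A fit on simulated data (MC against MM, 53796 regions) recovered 6%, 58%, 98% and 100% of log2 changes of 0.5, 1, 2 and 3. Only 200 regions above a read minimum were changed there, at a fixed dispersion of 0.01. In the data 17.2% and 8.79% of regions were called higher and lower. The adjusted threshold depends on that share, so these rates are not the recovery in the data. Alternatives covered normalization, low values, pseudocount, variance trend, replicate block, voom, samples in the fit and leaving out each library. Named regions were each gene's most accessible region, its called region with the widest range of group means, and every region called after prior treatment; other members named were chosen after their values were seen. The members, lists and motifs were chosen with earlier results of these data known.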

Additional observations from a re-analysis of the deposited data

Results flagged for a closer look

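At 3 Aim2 regions both libraries after prior treatment lay on opposite sides of prior medium under the 2 second treatments; none of these differences was called, and the difference between the second treatments was not tested. At Aim2 -1.5 kb the difference was 0.13 for CL against ML and -0.044 for CT against MT. At Aim2 +5.9 kb it was 0.25 for CL against ML and -0.27 for CT against MT. At Aim2 +7.0 kb it was 0.18 for PL against ML and -0.089 for PT against MT.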

How the results depend on the processing

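No single-region value changed sign while called under any alternative. Of 142 called differences at member regions, 104 stayed called under every alternative that kept all libraries and was run on their region. Of the 142, 69 also stayed called without each library. The alternative that dropped regions of low mean level held 26 of the 34 members, so calls at the other members could not be lost under it. The MP arm rests on 1 sample in the main fit already, and leaving out an MP library removes no replicate. With 1 library left out, the arm of any other group also rests on 1 sample assumed to vary like the others. The counts of called members then ran from 2 to 5 (CL against ML), 0 to 1 (CL against PL), 5 to 8 (CT against MT), 6 to 11 (CT against PT), 1 to 4 (MC against ML), 9 to 13 (MC against MM), 5 to 9 (ML against MM), 5 to 10 (MP against MC), 12 to 19 (MP against ML), 18 to 21 (MP against MM), 0 to 2 (MT against MM), 7 to 11 (PL against ML), 11 to 16 (PT against MT) and 25 to 28 (any group).

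Other settings moved a count by over 1.5 times as follows. MT against MM gave 2 with libraries shifted to 1 median, 2 without the variance trend and 3 with the MP libraries as 2 samples, in place of 1. MC against ML gave 4 without the trend, 11 by voom and 12 with only the compared groups fitted, in place of 7. MP against MC gave 15 by voom, 15 with MP as 2 samples and 13 with only the compared groups, in place of 8. CL against PL gave 2 without the trend and 7 with only the compared groups, in place of 4, and CT against PT gave 6 with only the compared groups, in place of 11. With only the compared groups, ML against MM gave 6 higher and 6 lower. The cause of these moves was not tested. Lost calls named at single regions above are mostly those from leaving out a library, and other settings lost further calls. In PT against MT, 3 were lost with quantile normalization and 5 with only the compared groups. The count of member regions was 26 with only those inside a body and 30 by nearest gene end.

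The replicate numbers showed no pairing common to all groups, with correlations of same-numbered deviations from -0.358 to 0.242 over 36 pairs of groups. The median was -0.000264 and 5 pairs were above 0.1. Whether some groups shared a batch was not tested. With the replicate block CL against PL gave 3 in place of 4, and no other count of called members moved. The lowest regions, with 3 to 51 reads, limit what can be read there.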
